A study of Mus musculus with 2 samples.

Results

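The genes described here encode the subunits of potassium channels in the mouse heart. They were chosen by name: every entry of the deposited table whose symbol has the form Kcn, letters and a digit, together with Abcc8 and Abcc9, which gave 97 of 30385 entries. The 97 entries stand for 96 gene names, since Kcnh8 is listed at 2 positions, and 1 of them, Kcnq1ot1, is a long RNA transcribed antisense within Kcnq1 and not a channel subunit. Both libraries came from hearts of 129/SvEv mice aged 8 to 16 weeks, 1 pool of wild-type (WT) animals and 1 pool of MHC403/+ animals, which carry a missense mutation in a cardiac myosin heavy chain gene as a model of hypertrophic cardiomyopathy. Both pools, controls included, came from animals given CsA (cyclosporine A, which blocks calcineurin) for 2 weeks, in 2 subcutaneous doses daily of 15 mg/kg. The assay, 5′RNA-seq, reads intact polyA RNA near its 5′ ends.

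Potassium currents end the cardiac action potential. In mouse ventricle a fast transient outward current, carried by Kv4 pores (Kcnd genes) with the calcium-binding subunit KChIP2 (Kcnip2), does most of the early repolarization. Delayed rectifiers follow, inward rectifiers of the Kir2 group hold the resting potential, KATP channels open when cellular ATP falls, and two-pore channels carry a background leak.

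The libraries held 5468677 reads (MHC403) and 5481123 reads (WT). Mitochondrial entries took 15.4% of MHC403 reads and 32.9% of WT reads, so the choice of scaling matters. Every ratio has MHC403 in the numerator, uses reads scaled to library totals unless another scaling is named, and is given with exact (Clopper-Pearson) 95% counting intervals. With 1 pooled library per genotype no difference has a replicate check and no test across genotypes was possible. The intervals and the floor of 3 counts used for a library at 0 reads cover counting error only. An entry is called measured where either library had 50 reads or more, as 9507 had, and a 2-fold difference is the size at which an entry is listed as higher or lower. The median measured entry had a ratio of 1.48 (log2 0.57). Median-of-ratios scaling lowers every log2 ratio by 0.55, TMM scaling by 0.55 and totals without mitochondrial entries by 0.33.

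Of the 97 entries 30 had no reads, 39 had 1 to 19 reads in the higher library, 10 had 20 to 49 and 18 were measured. An entry can pass this minimum through 1 library alone, so the 18 do not stand for the whole family. Together the family took 0.0807% of MHC403 reads and 0.0885% of WT reads. Of the 18 measured members 1 was higher in MHC403 by at least 2-fold (Kcnj14) and 3 were at least 2-fold lower (Kcnip2, Kcnd2 and Abcc9). Over all measured entries 26.1% were higher and 2.43% lower by the same rule. The share of higher members was thus under the background (5.56%) and the share of lower ones above it (16.7%). Of the lower members Kcnip2 and Kcnd2 passed the read minimum through WT alone, and Abcc9 passed it in both libraries. With median-of-ratios scaling no member was higher and 6 were lower, against backgrounds of 10.9% and 7.59%, and Kcnj2, Kcnj3 and Abcc8 were the added ones. TMM gave the same counts of members with backgrounds of 10.9% and 7.55%. With totals without mitochondrial entries none was higher and 3 were lower, with backgrounds of 15.2% and 4.51%. The median log2 ratio of the measured members was -0.04, which lay 0.61 under that of all measured entries. The counting interval lay wholly above 1 in 6 members, wholly below in 6 and held 1 in 6, where 63.2% and 10.3% of all measured entries lay above and below. By comparison, 14 sodium, calcium, HCN and TRP channel entries were measured. Of these 4 passed 2-fold upwards (28.6%, beside 26.1% of all measured entries) and none downwards (beside 2.43%). With median-of-ratios scaling 2 passed upwards (14.3%, beside 10.9%) and none downwards (beside 7.59%). The median log2 ratio of these 14 was 0.27, which lay 0.30 under that of all measured entries. The difference between both groups of channels was not tested.

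**Figure D1:**
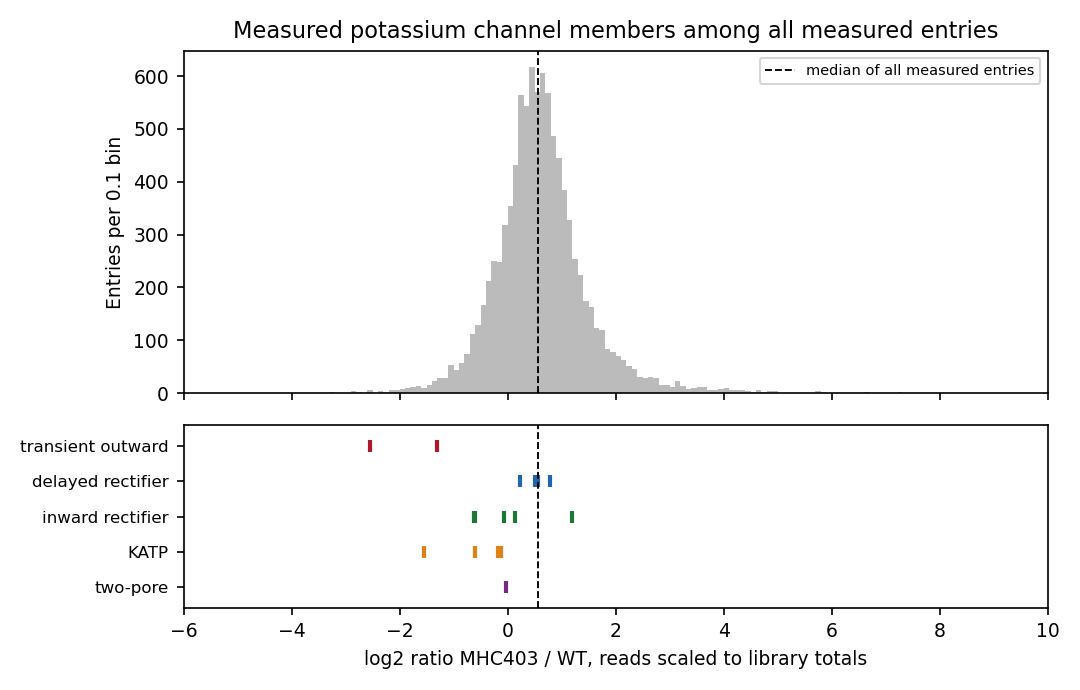
Top, number of measured entries per bin of 0.1 in the log2 ratio of MHC403 over WT (9507 entries), with their median as a dashed line at 0.57. Bottom, 17 of the 18 measured potassium channel members by class, 1 tick each: the delayed rectifier members lie around the dashed line, and all KATP members lie below 0.

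Both measured subunits of the transient outward current were lower in MHC403, while Kcnd3, just under the read minimum, was not. Kcnip2 and Kcnd2 reached the read minimum through WT alone, and Kcnd3 reached it in neither library. That both measured subunits were lower thus depends on this minimum and gives no share for the class. Kcnip2, which encodes KChIP2, the auxiliary subunit that brings Kv4 pores to the surface and slows their inactivation, had 29 reads in the MHC403 library (5.30 RPM, reads scaled to the library total) and 169 in WT (30.8 RPM). It was 5.81-fold lower (3.90 to 8.95), the largest deficit of any measured member. Kcnd2, a Kv4 pore subunit, had 23 reads against 57 and was 2.47-fold lower (1.499 to 4.21). Both stayed at least 2-fold lower under the other 3 scalings. Kcnd3, the other Kv4 pore of the heart, had 49 reads against 29, a ratio of 1.69 (1.05 to 2.78), 1 read short of the minimum. These 2 pore genes therefore lay on either side of a ratio of 1 with library totals. With median-of-ratios scaling Kcnd3 had a ratio of 1.16, for which no interval was computed. The Kcnd3 ratio with library totals was near the median of all measured entries, 1.48, which its interval held.

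The reads of both pore genes within a library do not depend on the scaling. Kcnd2 made up 66.3% of the Kcnd2 and Kcnd3 reads in WT (exact 95% interval 55.3 to 76.1) and 31.9% in MHC403 (21.4 to 44.0). The quotient of Kcnd2 to Kcnd3 reads was 1.97 in WT and 0.469 in MHC403, a 4.15-fold difference (2.04 to 8.63). Summed over Kcnd1, Kcnd2 and Kcnd3 the pore reads were 76 against 86, with a ratio of 0.886 (0.642 to 1.22) whose interval held 1. Kcnip2 was lower also against these pores: its quotient to Kcnd2 was 2.97 in WT and 1.26 in MHC403, a 2.34-fold difference (1.192 to 4.58). Its quotient to Kcnd3 was 5.83 in WT and 0.592 in MHC403, a 9.74-fold difference (5.15 to 18.9). Such quotients compare libraries and give no ratio of transcript numbers between genes. The remaining members of the class had few reads: Kcna4, the pore of the slow transient outward current, had 6 against 8, and Kcnip3 20 against 10. Kcnip1 had none, which allows up to 0.549 RPM in MHC403 and 0.547 in WT. The class as a whole had 132 reads against 273, 2.06-fold lower (1.67 to 2.56). Without Kcnip2 it had 103 against 104, a ratio of 0.993 (0.748 to 1.32), an interval that held 1.

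The reads of this assay gather at transcription starts, so the 250 bases before the RefSeq starts (GRCm38.p6) of Kcnip2, Kcnd2 and Kcnd3 are shown. With library totals the ratios of these subunits lay on opposite sides of 1. Capitals mark the GC box (GGGCGG) and the CACCC box bound by Krüppel-like factors (CACCC), searched on both strands together with the TATA box (TATAAA), with no overlap between matches.
Kcnip2, chr19:45816064-45816313, minus strand: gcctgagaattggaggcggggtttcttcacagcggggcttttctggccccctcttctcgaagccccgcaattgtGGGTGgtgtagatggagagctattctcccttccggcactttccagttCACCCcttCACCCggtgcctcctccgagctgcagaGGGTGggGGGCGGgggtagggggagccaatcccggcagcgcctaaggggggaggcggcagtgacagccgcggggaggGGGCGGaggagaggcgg
Kcnd2, chr6:21215096-21215345, plus strand: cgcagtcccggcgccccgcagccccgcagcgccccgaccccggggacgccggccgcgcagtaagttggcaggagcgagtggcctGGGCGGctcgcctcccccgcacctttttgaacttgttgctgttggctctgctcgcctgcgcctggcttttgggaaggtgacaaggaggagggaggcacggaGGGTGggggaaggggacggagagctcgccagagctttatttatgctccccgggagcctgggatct
Kcnd3, chr3:105451640-105451889, plus strand: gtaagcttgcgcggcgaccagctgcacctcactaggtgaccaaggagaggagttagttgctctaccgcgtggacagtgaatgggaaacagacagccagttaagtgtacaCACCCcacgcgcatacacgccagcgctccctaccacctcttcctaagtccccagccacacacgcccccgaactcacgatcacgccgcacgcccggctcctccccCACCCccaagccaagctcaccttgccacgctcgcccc
The Kcnip2 stretch held 2 GC boxes and 4 CACCC boxes, that of Kcnd2 1 and 1, and that of Kcnd3 no GC box and 2 CACCC boxes. A TATA box was in none of them. Of 32851 listed promoters of this length, 32.7% held a GC box, 52.0% a CACCC box and 12.4% a TATA box. Of the 18 measured members 10 had a listed promoter, 6 with a GC box, 9 with a CACCC box and none with a TATA box. GC made up 66.8% of the Kcnip2 stretch, 68.8% of that of Kcnd2 and 62.8% of that of Kcnd3, where the median over all listed promoters was 52.4%. A match is only a match of letters. The RefSeq start of Kcnip2 lies 359 bases inside the gene's outermost start. On mm9, the build of the deposited table, Kcnip2 spans chromosome 19, 45868160 to 45890293, with 2 annotated starts whose reads were counted together, Kcnd2 spans chromosome 6, 21166109 to 21679805, and Kcnd3 chromosome 3, 105255248 to 105476920.

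**Figure D2:**
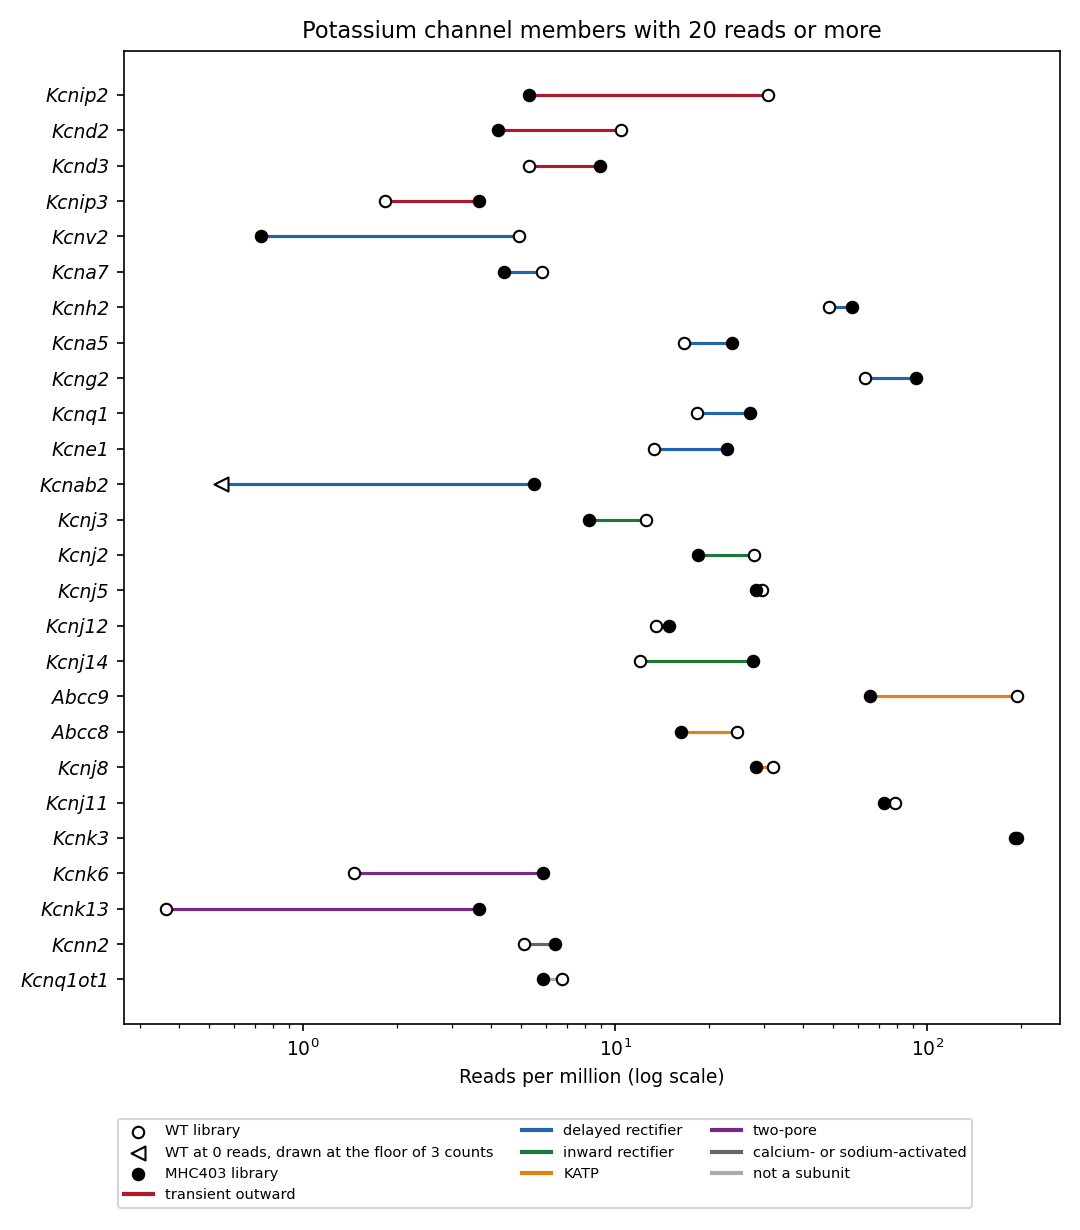
RPM (log scale) of 26 of the members with at least 20 reads in 1 library, with WT as open and MHC403 as filled circles joined by a line coloured by class. The triangle is Kcnab2 in WT, at 0 reads. The long lines to the left are Kcnip2, Kcnd2, Kcnv2 and Abcc9.

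The delayed rectifiers formed the largest class, with 45 entries, and the median of its measured members was close to that of all genes. Of 6 measured members none passed 2-fold, and their median log2 ratio was 0.56, beside 0.57 for all measured entries. Kcna5, a Kv1 pore of the ultrarapid delayed rectifier, had 129 reads against 91 (ratio 1.42, 1.08 to 1.88). Kcng2, a silent subunit that forms channels only together with other pore subunits, had 501 against 345 (1.46, 1.27 to 1.67). Both ratios were above 1, whereas under median-of-ratios scaling they were 0.972 and 0.996.

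The channels of the slow and rapid delayed rectifiers, best known from large mammals and from inherited long QT syndrome, had ratios on both sides of the median of all genes. Kcnq1, the pore of the slow current, had 148 reads against 100 (ratio 1.48, 1.14 to 1.93), and its partner Kcne1 125 against 73 (1.72, 1.28 to 2.32). With median-of-ratios scaling these ratios were 1.01 and 1.17. Kcnh2, the pore of the rapid current, had 313 reads against 266, a ratio of 1.18 (0.998 to 1.39) whose interval held 1, and 0.807 with median-of-ratios scaling. Kcnq1 made up 57.8% of the Kcnq1 and Kcne1 reads in WT (50.1 to 65.3) and 54.2% in MHC403 (48.1 to 60.2). The quotients differed by 1.16-fold (0.774 to 1.73), and the interval held 1.

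Among delayed rectifier members under the read minimum, Kcnv2 and Kcnab2 stood out in opposite directions. Kcnv2, another silent subunit, had 4 reads against 27 and was 6.73-fold lower (2.35 to 26.5). The silent subunits Kcng2 and Kcnv2 thus had ratios on opposite sides of 1, a statement that for Kcng2 holds with library totals and without mitochondrial entries, and turns to 0.996 with median-of-ratios scaling. Kcnab2, a cytoplasmic beta subunit of Kv1 channels, had 30 reads in MHC403 and 0 in WT. Set against the floor of 3 counts in WT its ratio was 10.02, and its counting interval, which has no upper limit, began at 7.66. Kcne4, an inhibitory partner of Kv1 and KCNQ pores, had 19 reads against 7 (2.72, 1.10 to 7.66). Kcna7 had 24 against 32 (0.752, 0.424 to 1.32), with an interval that held 1. The summed reads of the class were 1501 against 1063, a ratio of 1.42 (1.31 to 1.53), or 1.40 (1.27 to 1.54) without Kcng2. The log2 ratio of this sum was 0.50, and with median-of-ratios scaling it was -0.05.

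**Figure D3:**
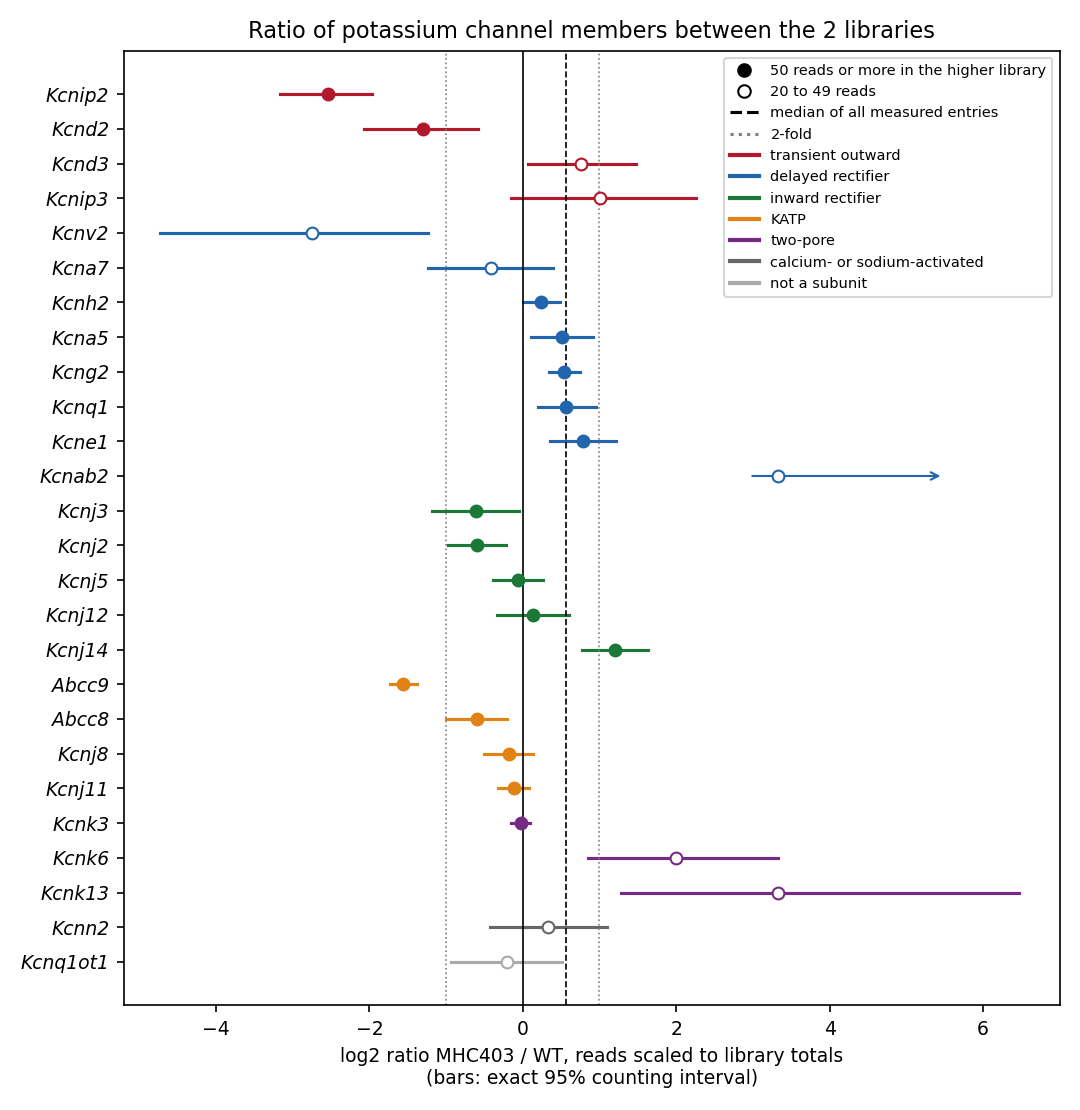
Log2 ratio of MHC403 over WT for 26 of the members with at least 20 reads in 1 library, grouped by class, with exact 95% counting intervals as bars. Filled points are measured members and open points those with 20 to 49 reads; the dashed line is the median of all measured entries (0.57) and the dotted lines mark 2-fold. For Kcnab2 (WT at 0) the point is the ratio against the floor and the arrow an interval without upper limit.

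Inward rectifiers of the Kir2 group, which set the resting potential, differed between the libraries in their make-up more than in their sum. Kcnj2, the main Kir2 pore of the ventricle, had 101 reads in MHC403 and 153 in WT, and was 1.51-fold lower (1.17 to 1.96), within 2-fold. Kcnj12 had 81 against 74 (ratio 1.10, 0.791 to 1.52). Kcnj14, a Kir2 pore best known from neurons (chromosome 7, 53071837 to 53080117 on mm9), had 151 reads against 66 and was 2.29-fold higher (1.71 to 3.11). Kcnj14 was the measured member with the highest ratio, and it had a ratio of 1.57 with median-of-ratios scaling, where it no longer passed 2-fold. Summed over the 4 Kir2 pores the reads were 335 against 296, with a ratio of 1.13 (0.967 to 1.33).

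Within the reads of Kcnj2, Kcnj12 and Kcnj14, the first made up 52.2% in WT (46.3 to 58.1) and 30.3% in MHC403 (25.4 to 35.6). Kcnj14 made up 22.5% in WT (17.9 to 27.7) and 45.3% in MHC403 (39.9 to 50.9), while Kcnj12 had 25.3% and 24.3%. The member with the most reads was Kcnj2 in WT and Kcnj14 in MHC403. The quotient of Kcnj14 to Kcnj2 was 0.431 in WT and 1.495 in MHC403, a 3.46-fold difference (2.32 to 5.18). A value beside this result concerns the neighbour Grwd1, whose span on the same strand ends 476 bases before the Kcnj14 start and which had 142 reads against 71 (ratio 2.00, 1.497 to 2.70). Transcripts of Kcnj14 also share 34.3% of their 36-base words with a processed pseudogene, Gm5522, though none before base 338 of the longest transcript. The part of either in the Kcnj14 value was not tested.

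The Kir3 pores Kcnj3 and Kcnj5 form the acetylcholine-gated channel, which is most abundant in atria and the pacemaker. Kcnj5 had 155 reads against 162 (ratio 0.959, 0.764 to 1.203). Kcnj3 had 45 against 69 and was 1.53-fold lower (1.04 to 2.28), within 2-fold. The share of Kcnj3 in the reads of both was 29.9% in WT (24.0 to 36.2) and 22.5% in MHC403 (16.9 to 28.9), and the quotients differed by 1.47-fold (0.929 to 2.33), an interval that held 1. The 5 atrial marker genes summed to 182 reads against 74, a ratio of 2.47 (1.87 to 3.28). Of these, Dkk3 had 92 against 7 and Upk3b 33 against 18, while Myl7, Myl4 and Sln had 31 against 27, 24 against 19 and 2 against 3. Their part in the Kir3 values was not tested. Other inward rectifiers were sparse, with 4 reads against 1 for Kcnj10 and none for Kcnj1 and Kcnj16. All 13 inward rectifier entries had 545 reads against 531, a ratio of 1.03 (0.911 to 1.16), and 0.04 on the log2 scale became -0.51 with median-of-ratios scaling.

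KATP channels join a Kir6 pore, Kcnj8 or Kcnj11, with a sulphonylurea receptor, Abcc8 (SUR1) or Abcc9 (SUR2). In the mouse heart SUR2 is known as the receptor of ventricular myocytes and SUR1 as that of atria. Abcc9 had 359 reads in MHC403 (65.6 RPM) and 1058 in WT (193 RPM) and was 2.94-fold lower (2.61 to 3.32), and 4.30-fold lower with median-of-ratios scaling. Abcc8 had 89 against 135 and was 1.51-fold lower (1.15 to 2.00), within 2-fold, and 2.21-fold lower with median-of-ratios scaling. The pores had intervals that held 1 with library totals. Kcnj11 had 396 reads against 431 (ratio 0.921, 0.801 to 1.06) and Kcnj8 154 against 175 (0.882, 0.706 to 1.10). With median-of-ratios scaling these ratios were 0.630 and 0.603, so the pores were lower too under that scaling.

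Reads of the receptor Abcc9 were thus lower against pore reads, whichever scaling is used. Quotients of Abcc8 to the pores were not computed. The quotient of Abcc9 to Kcnj11 was 2.45 in WT and 0.907 in MHC403, a 2.71-fold difference (2.25 to 3.26), and that of Abcc9 to Kcnj8 6.05 and 2.33, a 2.59-fold difference (2.01 to 3.35). The pores kept like shares: Kcnj8 made up 28.9% of the reads of both in WT (25.3 to 32.7) and 28% in MHC403 (24.3 to 31.95). Among receptors, Abcc9 made up 88.7% in WT (86.7 to 90.4) and 80.1% in MHC403 (76.1 to 83.7). Both receptors together had 448 reads against 1193, 2.66-fold lower (2.38 to 2.97), where both pores together had 550 against 606 (ratio 0.910, 0.809 to 1.02). Without Abcc9 the class had 639 reads against 741, 1.16-fold lower (1.04 to 1.29), compared with 1.80-fold lower (1.66 to 1.95) with it.

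**Figure D4:**
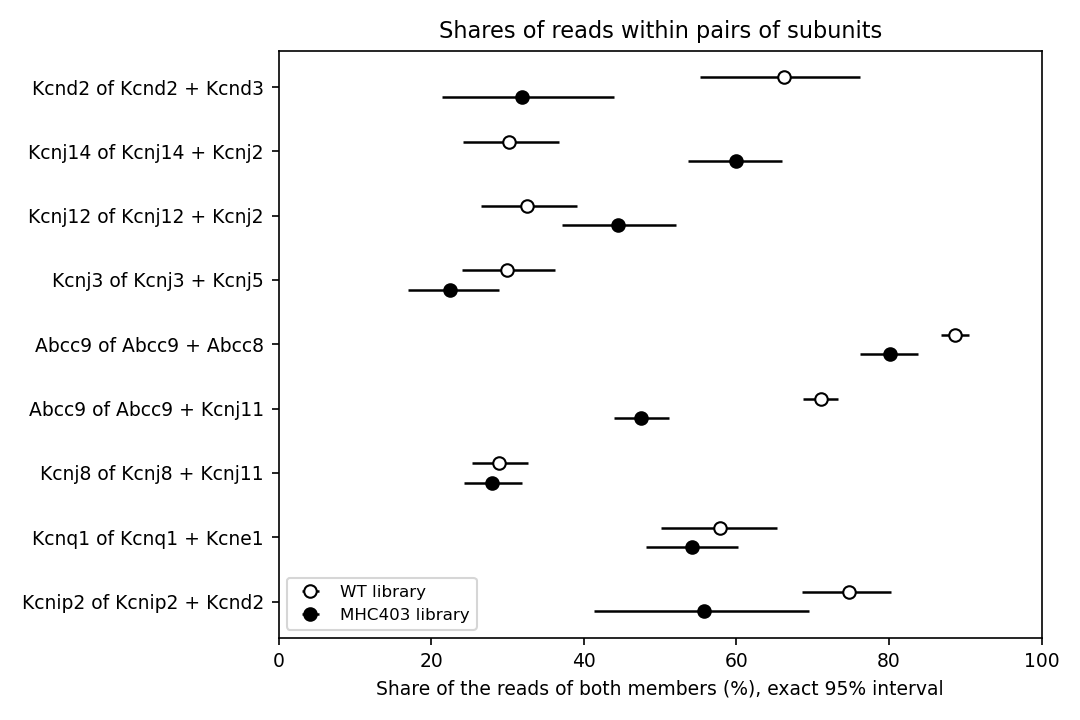
Share of 1 member in the summed reads of a pair, in percent with exact 95% intervals, for WT (open) and MHC403 (filled). The intervals lie apart for Kcnd2 with Kcnd3 (66.3% and 31.9%), Kcnj14 with Kcnj2, and Abcc9 with Abcc8 or Kcnj11, and overlap for Kcnj8 with Kcnj11 (28.9% and 28%) and Kcnq1 with Kcne1.

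Pores and receptors of KATP channels lie side by side in the genome. On mm9 Kcnj8 (chromosome 6, 142513459 to 142519876) lies 16.5 kb from Abcc9 (142536382 to 142650794) and Kcnj11 (chromosome 7, 53352532 to 53355607) 4.29 kb from Abcc8 (53359893 to 53435403), each pair on 1 strand. The neighbours Kcnj8 and Abcc9 had unlike ratios, so the 250 bases before their RefSeq starts are shown with the same motifs in capitals.
Abcc9, chr6:142702275-142702524, minus strand: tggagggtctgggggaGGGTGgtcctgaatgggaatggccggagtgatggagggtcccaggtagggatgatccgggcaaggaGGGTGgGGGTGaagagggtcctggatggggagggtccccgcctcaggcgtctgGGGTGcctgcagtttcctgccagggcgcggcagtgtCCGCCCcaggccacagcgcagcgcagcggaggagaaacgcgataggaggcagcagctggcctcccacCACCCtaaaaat
Kcnj8, chr6:142571615-142571864, minus strand: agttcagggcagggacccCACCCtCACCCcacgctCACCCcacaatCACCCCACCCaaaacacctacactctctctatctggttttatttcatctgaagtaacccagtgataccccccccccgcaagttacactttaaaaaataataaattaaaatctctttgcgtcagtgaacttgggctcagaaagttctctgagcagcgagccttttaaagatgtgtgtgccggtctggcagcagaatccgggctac
The Abcc9 stretch held 1 GC box and 5 CACCC boxes and had 66.8% GC, and that of Kcnj8 held no GC box and 5 CACCC boxes, between 199 and 232 bases before the start, and had 49.2% GC. Neither held a TATA box. The RefSeq start of Abcc9 lies 492 bases inside the gene's outermost start.

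Two-pore channels were led by Kcnk3 (TASK-1), the acid-sensitive leak channel of the heart, with nearly equal reads in both libraries. Kcnk3 had 1042 reads against 1063, a ratio of 0.982 (0.901 to 1.07), or 0.672 with median-of-ratios scaling. An unnamed transcript on the other strand spans its start, with 94 reads against 93, and whether reads were counted by strand was not given in the sources used here. Besides Kcnk3, 13 entries of the class were sparse and summed to 72 reads against 23, a ratio of 3.14 (1.94 to 5.26), and 3 of them carried most of these reads. Kcnk6 (TWIK-2) had 32 against 8 (4.01, 1.81 to 10.1), Kcnk13 (THIK-1) 20 against 2 (10.02, 2.43 to 88.4) and the stretch-activated Kcnk2 (TREK-1) 16 against 5 (3.21, 1.12 to 11.2). With median-of-ratios scaling these ratios were 2.74, 6.86 and 2.19. Kcnk5 had 2 reads against 6, Kcnk4 1 against 2 and Kcnk15 1 against 0, and 7 entries of the class had no reads. Of all entries with 1 to 49 reads 68.1% were higher in MHC403.

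Calcium- and sodium-activated channels had no measured member. Kcnn2, a small-conductance calcium-activated channel, had 35 reads against 28 (ratio 1.25, 0.740 to 2.14), and its windows overlap those of a second entry for the same channel. The sodium-activated channels Kcnt1 and Kcnt2 had 17 against 4 (4.26, 1.39 to 17.4) and 13 against 4 (3.26, 1.01 to 13.7). Kcnma1, the large-conductance channel of smooth muscle, had no reads in either library. The class summed to 92 reads against 64, a ratio of 1.44 (1.04 to 2.01), and -0.02 on the log2 scale with median-of-ratios scaling. Kcnq1ot1 had 32 reads against 37 (0.867, 0.523 to 1.43).

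Among the 49 members with 1 to 49 reads, 34 had more scaled reads in MHC403 and 15 had fewer. The 69.4% that were higher lay beside 68.1% for all entries with 1 to 49 reads, so the sparse members had the same share as the background. Of the members with reads in 1 library only, 11 were at 0 in WT (16.4% of the 67 members with reads) and 1 at 0 in MHC403 (1.49%), where the shares over all 18331 entries with reads, not matched for read number, were 6.92% and 5.30%. Kcnab2 was the only such member above 19 reads.

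**Figure D5:**
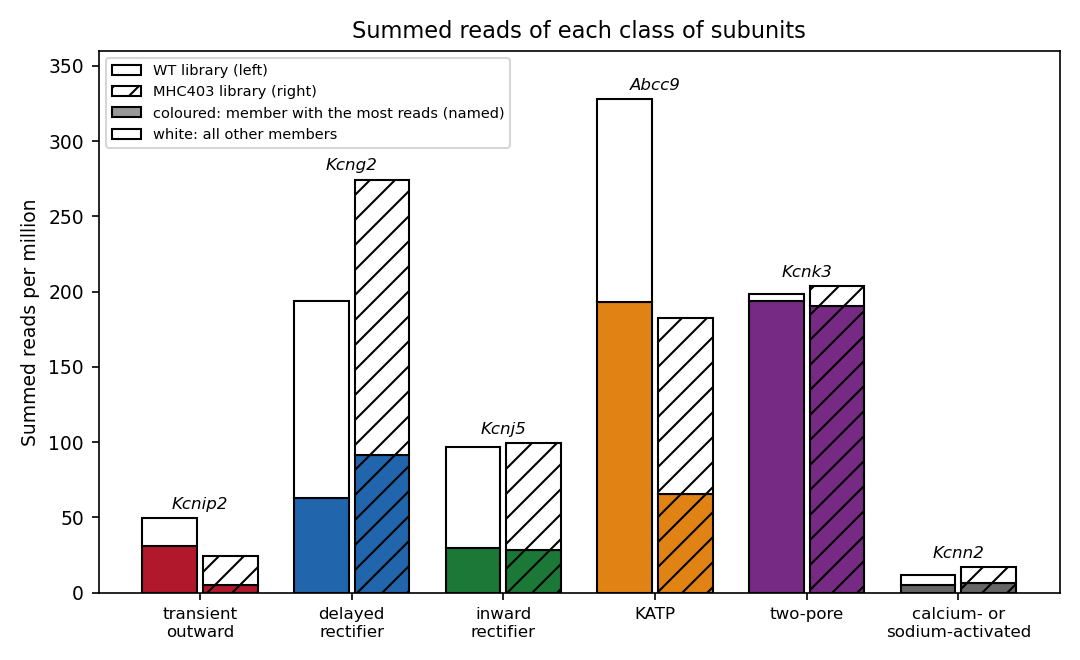
Summed RPM of each class of subunits in WT (left bar) and MHC403 (right bar, hatched), with the member that has the most reads coloured and named and all other members in white. KATP stood at 328 RPM in WT and 182 in MHC403 and transient outward at 49.8 and 24.1, with most of each gap in the coloured member; delayed rectifiers stood at 194 and 274 RPM.

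Partners and regulators of these channels (20 genes listed by role, 12 of them measured) showed 1 gene at least 2-fold higher (8.33%, beside 26.1% of all measured entries) and none lower (beside 2.43%), with a median log2 ratio of 0.13. Under each of the other 3 scalings none was higher and 2 were lower (16.7%). Over all measured entries 7.59% were lower with median-of-ratios scaling, 7.55% with TMM and 4.51% with totals without mitochondrial entries. The matching shares of higher entries were 10.9%, 10.9% and 15.2%. Sgk1, a kinase that raises the surface level of several channels, had 260 reads against 105 (2.48, 1.97 to 3.14), and 1.70 with median-of-ratios scaling. Klf15, a Krüppel-like factor known to drive Kcnip2 transcription, had 127 against 213 and was 1.67-fold lower (1.34 to 2.10), or 2.45-fold with median-of-ratios scaling. The Iroquois factors, known to pattern Kcnd2 across the ventricular wall, had ratios whose intervals held 1: Irx3 had 59 against 58, Irx4 77 against 70 and Irx5 36 against 34. Ank2, an anchor of membrane proteins, had 263 against 468 and was 1.78-fold lower (1.52 to 2.07), and its windows overlap another entry. The Kv4 partners Dpp6 and Dpp10 had 1 read and none. The scaffold Cav3 had 611 against 332 (1.84, 1.61 to 2.11).

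In RNA of heart tissue, fewer cells of a type and less RNA per cell cannot be told apart. The 7 markers of ventricular myocytes had summed reads 1.605-fold lower in MHC403 (1.596 to 1.61), with ratios from 0.416 (Myh6) to 1.85 (Actc1). Myh6 (55171 reads against 132965) and Myl2 (36100 against 86531) were at least 2-fold lower, as 2.43% of all measured entries were. The sum leans on these 2 and was not computed without them. Myh6 is itself a cardiac myosin heavy chain gene, the kind of gene mutated in MHC403/+ animals. Pln and Tnni3 had ratios of 0.513 and 0.582, and Ryr2 and Tnnt2 of 1.01 and 1.05. Kcnj8 and Abcc9 are also known from pericytes, whose 6 markers summed to a ratio of 1.46 (1.36 to 1.57), from 0.771 for Rgs5 to 4.51 for Cspg4 among the 5 measured. Summed markers had ratios of 1.27 for endothelium (8 genes, 0.715 to 1.84), 1.65 for smooth muscle (6, measured ones 1.03 to 2.94) and 3.16 for macrophages (6, measured ones 2.25 to 5.55). The 7 fibroblast markers summed to a ratio of 3.77, or 1.82 without Col1a1 (26.2), and 3 of them were at least 2-fold higher. All 5 measured macrophage markers were at least 2-fold higher. Over all measured entries 26.1% were at least 2-fold higher, and the median ratio was 1.48. With median-of-ratios scaling Cd68 (3.79) and Cd14 (3.61) stayed past 2-fold, while Mrc1 (1.83), Emr1 (1.83) and Csf1r (1.54) did not. That scaling lowers every ratio of this paragraph 1.46-fold, those of the sums included. The 6 neuronal markers summed to 95 reads against 63 (1.51, 1.09 to 2.11). Tubb3 had 33 against 0, Th 4 against 0, Dbh 2 against 8 and Stmn2 56 against 55. Chrna3 and Snap25 were at 0 in both. The 5 Schwann cell markers had 65 reads against 53, with S100b at 21 against 1, Sox10 at 20 against 6 and Mbp at 11 against 31. Markers of skeletal muscle were 1.85-fold lower in sum (1.80 to 1.91). Most of these reads were of Ckm, which the heart expresses too, and without it the other 6 were 2.67-fold lower in sum (2.35 to 3.04). Of these, Myh1, Myh2 and Myh4 were each at least 2-fold lower (beside 2.43% of all measured entries), and the windows of Myh2 overlap another entry. The others, all under the read minimum, were not lower by reads: Tnnt3 had 24 against 1, Actn3 18 against 15 and Mylpf 3 against 3. The part of cell composition in the ratios of the channel genes was not tested.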

How the data were processed

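Heart RNA of 1 pooled WT and 1 pooled MHC403/+ library was measured by 5′RNA-seq. The series' design text states the pooling but no number of animals. Per the submitters' processing notes, TopHat 1.0.14 and mm9 were used. How reads were counted, and whether by strand, was not given in the sources used here. Deposited counts are, per the file headers, reads per gene in the windows the table gives. The authors' deposited normalized reads are RPM (reads over the column total, scaled), equal on recomputation to reads over the column total within 4.94e-06. The authors' deposited fold is a ratio of these values and was not used. The authors' deposited p-value comes from a test that is not named and was not used. The authors' deposited start-site score, whose formula is not given, is printed as such.

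Reads were scaled to column totals. Exact 95% (Clopper-Pearson) intervals of the ratio are conditional on the reads of both libraries, and at 50 reads in each run from 0.662 to 1.51. A library at 0 was set to a floor of 3 counts. Quotients of 2 members within a library were compared by the conditional odds ratio with its exact 95% interval (SciPy 1.17.1), for pairs chosen after the values were seen. Alternatives were median-of-ratios, TMM (edgeR 4.0.16 under R 4.3.3) and totals without mitochondrial entries, read minimums of 20, 200 and none, leaving out overlapping windows, other call rules and leaving out the member with the most reads. The script was tested on simulated data. Starts are 1-based. Sequences are from RefSeq (GRCm38.p6, listed for 71 of 97 entries), and 36-base words from GENCODE M21 transcripts. Coordinates were never moved between builds. Members, classes and lists were chosen with earlier results of these data known. Measured members are named, as are sparse members of a cardiac current and those with 20 reads or more, except some genes that are not reported here; counts, medians and sums over lists include them. Partners other than Sgk1 and some further sparse members were named after their values were seen. All columns of reads belonged to the 2 libraries.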

Additional observations from a re-analysis of the deposited data

How the results depend on the processing

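Counts past 2-fold, medians and sums depended on the scaling and the read minimum. The cause of each move lies in how an alternative is built: the 3 scalings lower all log2 ratios by a constant, and the minimums change which entries enter. With median-of-ratios scaling, entries called higher were 0 (potassium channel members), 0 (inward rectifier), 0 (partners and regulators), 2 (sodium, calcium, HCN and TRP channels), entries called lower were 6 (potassium channel members), 2 (inward rectifier), 2 (KATP), 2 (partners and regulators), median log2 ratios were -0.59 (potassium channel members), 0.0076 (delayed rectifier), -0.61 (inward rectifier), -0.94 (KATP), -0.42 (partners and regulators), -0.28 (sodium, calcium, HCN and TRP channels), log2 ratios of summed reads were -1.59 (transient outward), -0.047 (delayed rectifier), -0.51 (inward rectifier), -1.39 (KATP), -0.51 (two-pore), -0.021 (calcium- or sodium-activated). With TMM scaling, entries called higher were 0 (potassium channel members), 0 (inward rectifier), 0 (partners and regulators), 2 (sodium, calcium, HCN and TRP channels), entries called lower were 6 (potassium channel members), 2 (inward rectifier), 2 (KATP), 2 (partners and regulators), median log2 ratios were -0.59 (potassium channel members), 0.0098 (delayed rectifier), -0.61 (inward rectifier), -0.93 (KATP), -0.42 (partners and regulators), -0.28 (sodium, calcium, HCN and TRP channels), log2 ratios of summed reads were -1.59 (transient outward), -0.044 (delayed rectifier), -0.50 (inward rectifier), -1.39 (KATP), -0.51 (two-pore), -0.019 (calcium- or sodium-activated). With totals without mitochondrial entries, entries called higher were 0 (potassium channel members), 0 (inward rectifier), 0 (partners and regulators), 2 (sodium, calcium, HCN and TRP channels), entries called lower were 2 (partners and regulators), median log2 ratios were -0.38 (potassium channel members), 0.22 (delayed rectifier), -0.39 (inward rectifier), log2 ratios of summed reads were -1.38 (transient outward), 0.17 (delayed rectifier), -0.29 (inward rectifier), -1.18 (KATP), -0.29 (two-pore). With a minimum of 20 reads, entries called higher were 6 (potassium channel members), 1 (transient outward), 2 (delayed rectifier), 2 (two-pore), entries called lower were 1 (delayed rectifier), median log2 ratios were 0.19 (potassium channel members). With a minimum of 200 reads, entries called higher were 0 (potassium channel members), 1 (sodium, calcium, HCN and TRP channels), entries called lower were 1 (potassium channel members), median log2 ratios were -0.84 (KATP), 0.76 (partners and regulators). With no read minimum, entries called higher were 15 (potassium channel members), 1 (transient outward), 5 (delayed rectifier), 2 (inward rectifier), 3 (two-pore), 4 (calcium- or sodium-activated), 12 (sodium, calcium, HCN and TRP channels), entries called lower were 6 (potassium channel members), 2 (delayed rectifier), 1 (two-pore), 1 (partners and regulators), 1 (sodium, calcium, HCN and TRP channels), median log2 ratios were 0.42 (potassium channel members). With calls by the counting interval, entries called higher were 6 (potassium channel members), entries called lower were 6 (potassium channel members). With calls at 1.5-fold, entries called higher were 3 (potassium channel members), entries called lower were 6 (potassium channel members). Shares over all entries were not computed for the other read minimums or for 1.5-fold, so these counts give no result about the members. Of all entries with 1 to 49 reads, 68.1% were higher in MHC403. With overlapping entries left out, median log2 ratios were 0.64 (partners and regulators). Leaving out the member with the most reads moved the log2 ratio of summed reads to -0.011 (transient outward, without Kcnip2), -0.21 (KATP, without Abcc9), 1.65 (two-pore, without Kcnk3). The other 96 values of these counts, medians and sums stayed within 1.5 times the reported count or inside limits around the reported value. For a sum these limits were its counting interval. For a median they were the limits of the middle member or the mean over both middle members, which is no interval of the median. Of the measured members that passed 2-fold, Kcnip2, Kcnd2 and Abcc9 did so under all 4 scalings, and Kcnj14 with library totals only; none changed its side of a ratio of 1. The quotients between members of 1 library do not depend on scaling. No paired analysis was possible because each genotype had 1 library. Depth limits members with few reads, whose intervals are wide, and pooling hides the spread between animals.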

Other observations

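The deposited table carries a start-site score for each gene, a whole number of unstated formula, which is above 0 only where both libraries had at least 20 reads. Of 22 potassium channel members with that many reads, 8 (36.4%) had a score above 0, where 34.7% of all 10483 such entries did. Abcc8 had the highest member score, 57, a value that 69 of all 30385 entries reached, and the median of scores above 0 was 8. Abcc8 (SUR1) has 2 annotated starts, and its total reads were 89 against 135. Kcnq1 had a score of 36 with 1 annotated start, and Kcnip2 a score of 24 with 2 annotated starts. Kcnj8, Kcnj5, Kcnj11, Kcnj3 and Kcnk3 had scores of 8, 7, 5, 3 and 1. Abcc9, Kcnd2 and Kcnj14, which passed 2-fold in total reads, had a score of 0. The table gives 1 value per gene, so the reads of single starts were not analysed here.

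Further members lie near each other on mm9 with unlike reads. Kcnj16 and Kcnj2 lie 38.2 kb apart on chromosome 11, with no reads in Kcnj16. Kcne2 and Kcne1 lie 47.9 kb apart on chromosome 16, with no reads in Kcne2. Kcnj5 and Kcnj1 lie 28.2 kb apart on chromosome 9, with no reads in Kcnj1.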
